A study of Mus musculus with 15 samples.

Results

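Tnf encodes tumour necrosis factor, a cytokine that macrophages release after contact with bacterial lipopolysaccharide (LPS). The sites described are all crosslink positions on the minus strand within this gene (ENSMUSG00000024401.14, chr17:35199381-35202007, GRCm38), the strand that carries it, in 6 deposited lists. They number 306 of the 123142 distinct positions in all lists. Each list belonged to 1 group of samples and gave, for every site, its unique cDNAs, molecules of reverse transcript that ended at the crosslinked nucleotide (nt).

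The lists came from individual-nucleotide resolution crosslinking and immunoprecipitation (iCLIP), in which UV light links a protein to the RNA it touches. The cells were C57BL/6 mouse bone marrow-derived macrophages deficient in tristetraprolin (TTP), the RNA-binding protein encoded by Zfp36. They had been immortalized with hcmyc and a mutant hRas and carried a doxycycline-inducible vector for GFP–TTP or for GFP–TTP-AA, in which serines 52 and 178, targets of the kinase MK2, were replaced by alanine (S52A and S178A). All cells of the 15 samples received doxycycline for 6 h, and the proteins were precipitated through their GFP tag. GFP–TTP was sampled in 2 libraries without LPS (0 h), 4 libraries after 1 h and 2 libraries after 4 h of LPS, and GFP–TTP-AA in 2, 3 and 2 libraries. The labels name no separate clones or animals, both proteins were produced from a vector, and the analysed files include no list for GFP alone.

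TTP binds AU-rich elements (AREs), runs of AUUUA in the 3′UTRs of short-lived mRNAs, and recruits enzymes that shorten the poly(A) tail and degrade the mRNA. Tnf mRNA is its classical target, and mice without TTP develop an inflammatory disease driven by TNF. After LPS, the kinases p38 and MK2 phosphorylate TTP, and the TTP-AA mutant cannot be modified at these sites. The Tnf 3′UTR also carries a constitutive decay element (CDE), a short stem-loop that is recognized by the Roquin proteins.

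The longest annotated Tnf 3′UTR, that of transcript Tnf-201, lies in exon 4 at chr17:35199381-35200144 and is 764 nt long. Positions are counted from 1 at the first nt after the coding sequence. AUUUA occurred 8 times: 7 copies, some of them overlapping, began at nt 421, 440, 447, 451, 458, 462 and 482, and the eighth began at nt 631. Of 1201 mouse 3′UTRs of 688 to 840 nt, 63.3% held AUUUA and 0.416% (5) held it at least 8 times. UUAUUUAUU, the full-length site preferred by TTP, occurred 5 times in Tnf and was present in 4.33% of those 3′UTRs. In Tnf it surrounded the AUUUA that began at nt 440, 447, 451, 458 and 462, and not those at nt 421, 482 and 631. The region from 20 nt before the first to 20 nt after the last AUUUA, nt 401 to 655, is called the AU-rich stretch below, and its first part, nt 401 to 506, the AU-rich core.

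The following stretches of the spliced Tnf mRNA (minus strand, GRCm38, 5′ to 3′, GENCODE transcript sequence) are those to which the results refer. The first 3 hold AUUUA number 1, number 7 and number 8, with the pentamer in capitals. The last 3 hold sequences that can pair at least 5 bases around a loop of 3 nt, with stem and loop in capitals. They lie at chr17:35199707-35199736, chr17:35199645-35199674, chr17:35199497-35199526, chr17:35200025-35200053, chr17:35199578-35199606 and chr17:35199423-35199451, in the order printed.
AUUUA number 1: cagccccccucuAUUUAuauuugcacuuau
AUUUA number 7: cuuaugaauguAUUUAuuuggaaggccggg
AUUUA number 8: uuaaaacaaaauAUUUAucuaacccaauug
Early stem-loop: cuguauccUUCUAACUUAGAAaggggauu
CDE stem-loop: cagacauGUUUUCUGUGAAAACggagcug
Late stem-loop: aaccucuGCUCCCCACGGGAGCcgugacu

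The cDNAs in these windows of at most 30 nt differed between the lists. The windows were printed because the results refer to them, so these differences are a description and no test. The window around AUUUA number 7 held 25 cDNAs in TTP at 0 h, 413 in TTP and 375 in TTP-AA at 1 h, and 33 in TTP and 28 in TTP-AA at 4 h. By contrast, the windows around AUUUA numbers 1 and 8 held 14 and 2 TTP cDNAs but 127 and 141 TTP-AA cDNAs at 1 h. The early stem-loop window held cDNAs only in TTP-AA at 1 h (58), and the late stem-loop window held 21 cDNAs in TTP-AA at 4 h, 1 in TTP-AA at 1 h and 0 in the other lists. At 1 h, the CDE window held 39 cDNAs in TTP and 55 in TTP-AA, and at the other times it held 0. A stem-loop found by this search is a match of letters, and 69.5% of the 3′UTRs of like length held at least 1.

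The lists contained between 8052 and 86497 sites and between 19167 and 174397 cDNAs. The authors had summed the libraries of a group before the sites were called, so no value per library and no spread between replicates was available. Every test below therefore compares pooled lists and not conditions, and intervals (95%) cover counting error only. The headers of the 1 h lists carried a mark for treating regions as one that the other lists lacked, so LPS time and this setting cannot be told apart. RNA levels are not part of the lists, so more Tnf mRNA and more binding per mRNA cannot be told apart either. Of the macrophage markers, 6 of 7 had 3′UTR cDNAs (Fcgr1 none), from 0 to 333 in a list when summed over the 7. All 7 had 0 in TTP-AA at 0 h and in both 4 h lists. The 9 markers of T cells, B cells, neutrophils and fibroblasts had 0 in every list.

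First, the amount of Tnf RNA crosslinked in each list was examined. The Tnf 3′UTR held 53 cDNAs in TTP at 0 h, 727 in TTP and 1673 in TTP-AA at 1 h, and 35 in TTP and 77 in TTP-AA at 4 h, and no Tnf site was listed for TTP-AA at 0 h. Divided by the number of libraries, these were 26.5, 182, 558, 17.5, 38.5 and 0 cDNAs. Both proteins thus had most Tnf cDNAs at 1 h. Among all genes with 3′UTR cDNAs, Tnf ranked 9 of 738 in TTP at 0 h, 1 of 1295 in TTP and 3 of 4468 in TTP-AA at 1 h, and 4 of 127 in TTP and 1 of 198 in TTP-AA at 4 h. Per length, Tnf carried 95.2 cDNAs per 100 nt of 3′UTR in TTP at 1 h, against a median of 0.220 for all genes with 3′UTR cDNAs, and 219 against 0.599 in TTP-AA. No intronic and no antisense Tnf cDNA was listed.

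Since the lists differ in size, Tnf was also expressed as a share. As a share of all 3′UTR cDNAs of a list, the order was TTP-AA at 4 h (7.70%, 6.20 to 9.52), TTP at 1 h (7.61%, 7.09 to 8.15), TTP at 4 h (3.86%, 2.79 to 5.33), TTP-AA at 1 h (1.79%, 1.71 to 1.88) and TTP at 0 h (1.21%, 0.929 to 1.58). The intervals of the first 2 overlap, and the other neighbours are separate. As a share of all cDNAs of a list, the order was TTP-AA at 1 h (0.959%, 0.915 to 1.01), TTP at 1 h (0.732%, 0.681 to 0.787), TTP-AA at 4 h (0.402%, 0.322 to 0.502), TTP at 0 h (0.158%, 0.121 to 0.206) and TTP at 4 h (0.120%, 0.0866 to 0.167), where the intervals of the last 2 overlap. The change of order goes with the share of a list that lay in 3′UTRs at all, which at 1 h was 9.63% in TTP and 53.6% in TTP-AA, and at 4 h was 3.12% and 5.22%.

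**Figure D1:**
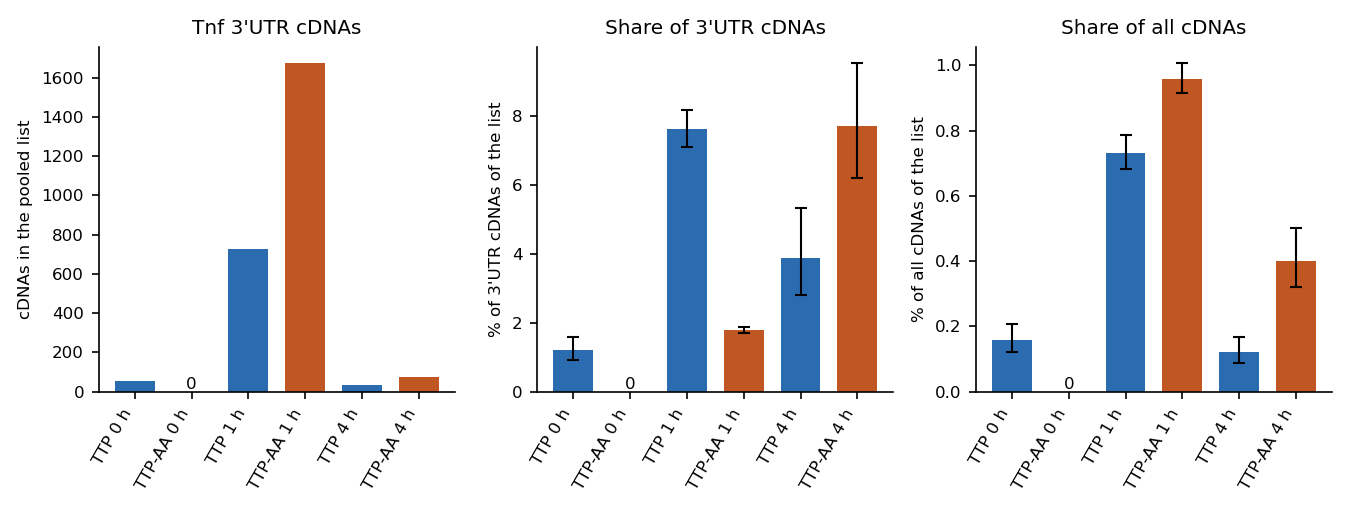
Tnf 3′UTR cDNAs in each pooled list (left), as a percentage of the 3′UTR cDNAs of the list (middle) and as a percentage of all its cDNAs (right), with TTP in blue, TTP-AA in orange and Wilson 95% intervals as error bars. TTP at 1 h (7.61%) lies above TTP-AA at 1 h (1.79%) in the middle panel and below it in the right panel (0.732% and 0.959%).

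The proteins were then compared at each LPS time with a two-sided Fisher exact test of Tnf against all other 3′UTR cDNAs, adjusted over all genes with at least 10 cDNAs by the Benjamini-Hochberg method. At 0 h, the 53 TTP cDNAs stood against 0 listed for TTP-AA (adjusted p 1.23e-18), in a comparison in which 30.7% of the 241 tested genes passed the threshold. Only sites called by the authors were listed, so a 0 is no measured absence. Its p, here and below, compares listed cDNAs and does not measure counting error. At 1 h, the Tnf share was lower in TTP-AA, with an odds ratio of 0.221 (0.202 to 0.242, adjusted p 6.21e-188), the smallest p of 2065 genes, of which 6.39% passed. At 4 h, the share was higher in TTP-AA, with an odds ratio of 2.08 (1.38 to 3.13, adjusted p 0.00102), and 68.0% of only 25 tested genes passed.

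The odds ratios depended on what was counted. At 1 h, the odds ratio was 1.31 when all cDNAs of a list were the denominator (adjusted p 5.80e-09), and 0.988 when sites in every gene region were used (adjusted p 0.830). At 4 h, the Tnf share stayed higher in TTP-AA under all 6 other denominators and site filters, with odds ratios from 2.14 with each site counted once to 4.24 with all gene regions. Of the 77 TTP-AA cDNAs, 46 lay downstream of the AU-rich stretch. Restricted to the AU-rich stretch, a choice made after these values were seen, the counts at that time were 35 for TTP and 31 for the mutant, and the odds ratio was 0.796 (0.487 to 1.30, adjusted p 0.415), whereas at 1 h it was 0.210. The plot of cDNAs per gene places Tnf among all tested genes and beside chemokine mRNAs that also carry AREs.

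**Figure D2:**
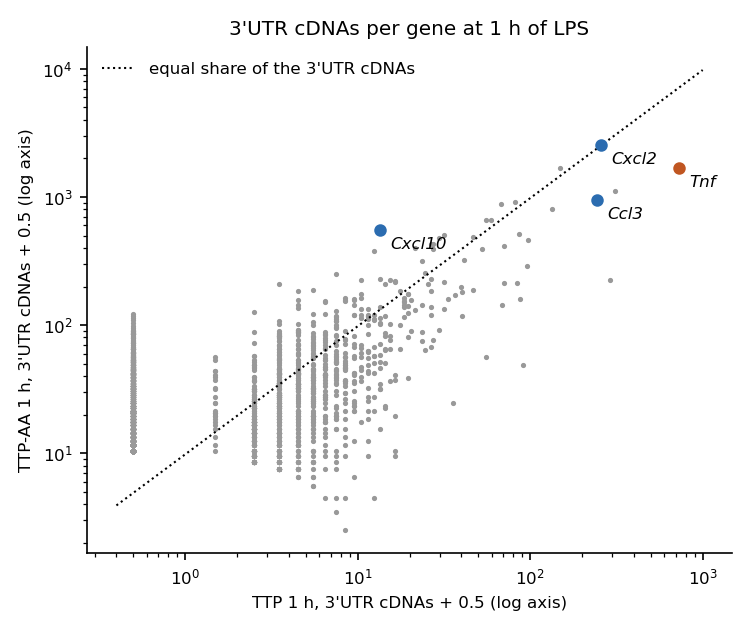
3′UTR cDNAs per gene in the TTP list (x axis) and the TTP-AA list (y axis) at 1 h, each plus 0.5 on log axes, for the 2065 tested genes (grey), with Tnf in orange and the chemokines Ccl3, Cxcl2 and Cxcl10 in blue. The dotted line marks an equal share of the 3′UTR cDNAs: Tnf (727 and 1673) and Ccl3 (244 and 938) lie below it, Cxcl2 (258 and 2536) on it and Cxcl10 (13 and 549) above it.

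Next, the LPS times were compared for each protein. For TTP, the Tnf share rose from 0 h to 1 h with an odds ratio of 6.70 (5.06 to 8.88, adjusted p 1.88e-63), and 47.5% of 276 tested genes passed in this comparison. From 1 h to 4 h it fell with an odds ratio of 0.488 (0.345 to 0.690, adjusted p 1.88e-04), where 20% of 170 genes passed, although with each site counted once the odds ratio was 1.36 (adjusted p 0.593). For TTP-AA, 0 listed cDNAs at 0 h stood against 1673 at 1 h (adjusted p 1.62e-43, with the same limit on a listed 0), and 12.4% of 2052 genes passed. From 1 h to 4 h the TTP-AA share of 3′UTR cDNAs rose with an odds ratio of 4.58 (3.61 to 5.81, adjusted p 1.37e-22), where 3.13% of 1980 genes passed. Against all cDNAs of the list this odds ratio was 0.416 (adjusted p 1.91e-15), and within the AU-rich stretch it was 1.87 (adjusted p 0.0533). The comparisons over time share the 1 h lists.

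The difference between the proteins at 4 h relative to that at 1 h was tested as an interaction in a logistic model. The ratio of the odds ratios was 9.38 (6.17 to 14.3, likelihood-ratio test, p 1.12e-27). It was 2.55 (1.69 to 3.84, p 3.24e-06) against all cDNAs, and 3.79 (2.30 to 6.26, p 5.14e-07) when only the AU-rich stretch of Tnf was counted, a choice made after seeing the data.

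Within the 3′UTR, the cDNAs lay at fewer nt in TTP than in TTP-AA at 1 h. The numbers of sites were not matched for depth, as the lists held 9558 and 93510 3′UTR cDNAs, of which 727 and 1673 were of Tnf. At that time, TTP had 131 Tnf 3′UTR sites with 5.55 cDNAs per site and TTP-AA had 238 with 7.03, while all 3′UTR sites of these lists averaged 1.41 and 1.53. In TTP, 13 sites held 50% of the Tnf cDNAs, compared with 40 in TTP-AA. Sites with a single cDNA numbered 49 and 57. At 0 h, 10 of the 32 sites in TTP held 50%, and at 4 h this took 3 of 14 sites in TTP and 9 of 38 in TTP-AA.

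The AU-rich core held 613 of the 727 TTP cDNAs (84.3%, 81.5 to 86.8) and 1045 of the 1673 TTP-AA cDNAs (62.5%, 60.1 to 64.8) at 1 h. The stretch between the core and the eighth AUUUA, nt 507 to 610, held 91 (12.5%) and 261 (15.6%). The 45 nt around the eighth AUUUA, nt 611 to 655, held 16 (2.20%, 1.36 to 3.54) and 266 (15.9%, 14.2 to 17.7). The region around the last AUUUA thus carried a larger part of the TTP-AA profile than of the TTP profile. In TTP at 0 h, these 45 nt held 14 of 53 cDNAs (26.4%, 16.4 to 39.6), above the share in TTP at 1 h, and the core held 38 (71.7%). At 4 h, they held 0 cDNAs of either protein.

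**Figure D3:**
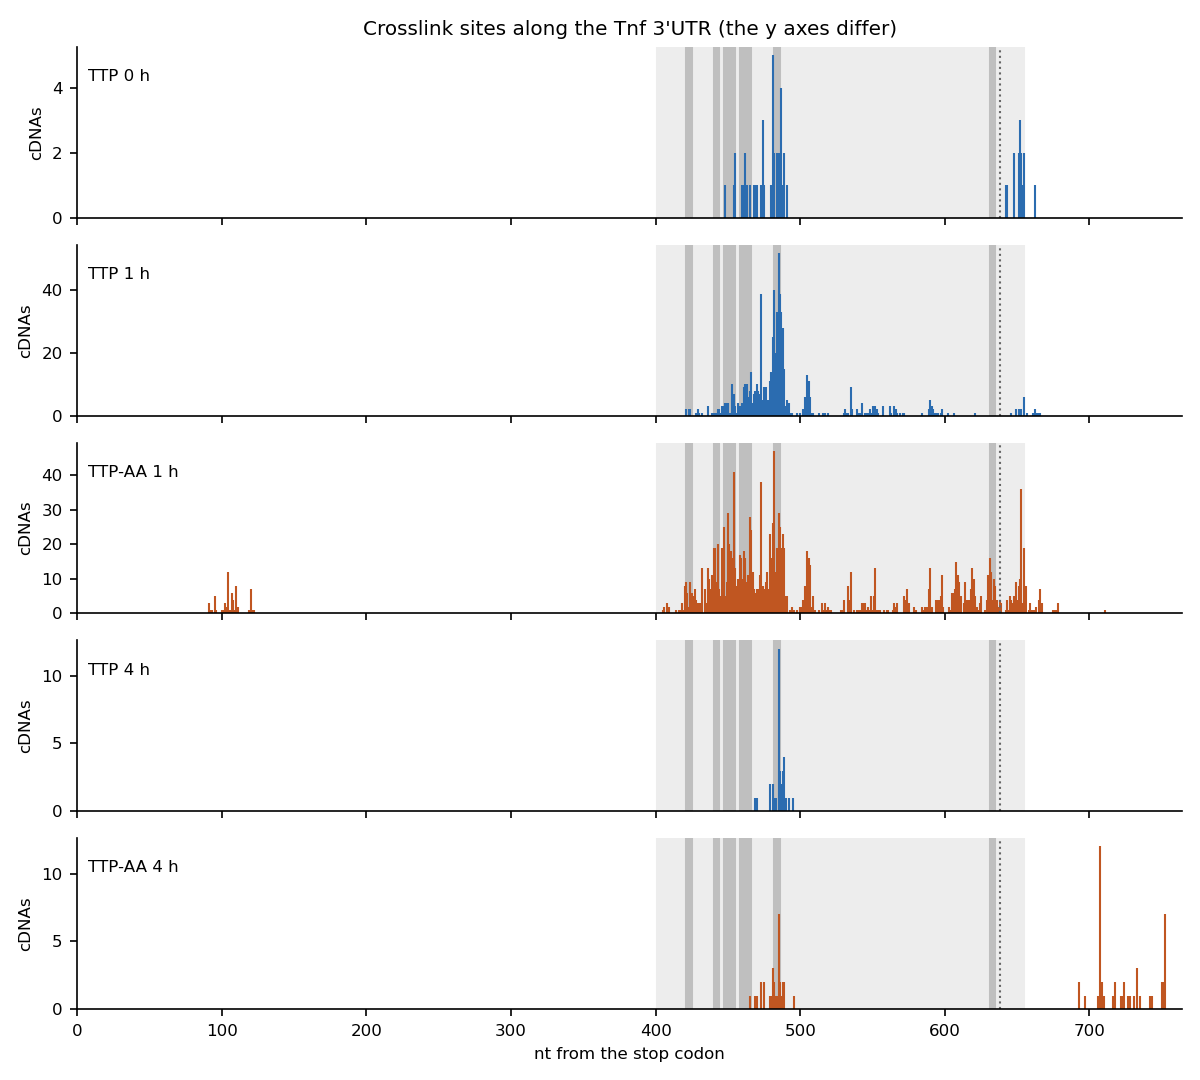
cDNAs (y axis, scaled for each list) at every nt of the Tnf 3′UTR, counted from the stop codon (x axis), in the 5 lists with Tnf sites, with the AU-rich stretch in light grey, AUUUA in dark grey and the end of the shorter transcript as a dotted line. Every list shown has cDNAs at nt 481 to 487, TTP-AA at 1 h also has cDNAs at nt 91 to 122, and TTP-AA at 4 h at nt 693 to 752.

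To resolve the ARE, each cDNA of the AU-rich stretch at 1 h was assigned to the nearest AUUUA. The share of each motif was compared with a Fisher exact test adjusted over the 8 motifs. Numbers 7 and 8 also took the distant sites between them, while motifs lying close together took few nt each. AUUUA number 7 took 448 of 720 TTP cDNAs (62.2%) and 474 of 1572 TTP-AA cDNAs (30.2%, odds ratio 0.262, adjusted p 1.48e-46). Its pentamer itself held 184 TTP and 132 TTP-AA cDNAs, so these shares are not counts at the motif alone. AUUUA number 6 took 126 (17.5%) and 168 (10.7%, odds ratio 0.564, adjusted p 1.77e-05). Both motifs at the 3′ end of the core therefore had a larger share in TTP.

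The other motifs went the other way or did not differ beyond counting error. AUUUA number 8 took 50 cDNAs in TTP (6.94%) and 417 in TTP-AA (26.5%, odds ratio 4.84, adjusted p 2.14e-30). Within its pentamer, however, 0 TTP cDNAs and 50 TTP-AA cDNAs were listed. AUUUA numbers 1 to 4 took 11, 11, 19 and 22 TTP cDNAs and 93, 130, 107 and 96 TTP-AA cDNAs, with odds ratios between 2.06 and 5.81 and adjusted p between 2.02e-11 and 0.00241. AUUUA number 5 took 33 and 87 (odds ratio 1.22, adjusted p 0.365). Expressed as the ratio of TTP-AA to TTP cDNAs, the motifs ranged from 1.06 at number 7 to 11.8 at number 2, while the ratio of all 3′UTR cDNAs of the lists was 9.78. With each site counted once (125 TTP and 202 TTP-AA sites), only number 8 passed the threshold, while number 7 took 44% of the sites in TTP and 32.2% in TTP-AA (adjusted p 0.136) and number 1 took 5.6% and 10.9% (adjusted p 0.301). When only sites within 5 nt of a motif centre were used, number 6 did not pass (adjusted p 0.416).

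**Figure D4:**
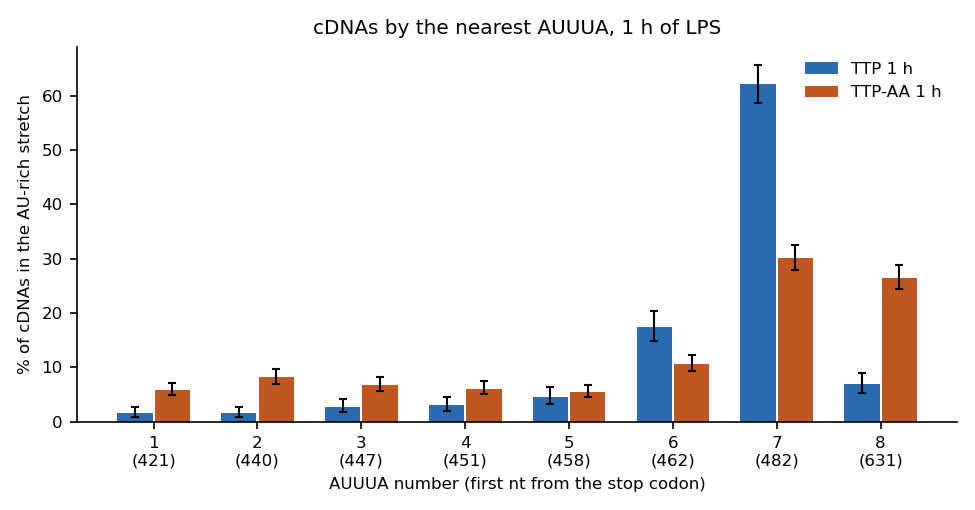
Share of the cDNAs in the AU-rich stretch (y axis, %) that lay nearest to each of the 8 AUUUA (x axis, with the first nt of each) at 1 h, for TTP (blue, 720 cDNAs) and TTP-AA (orange, 1572 cDNAs), with Wilson 95% intervals. Number 7 reaches 62.2% in TTP and 30.2% in TTP-AA, and number 8 reaches 6.94% and 26.5%.

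At 0 h and 4 h, the counts in the AU-rich stretch were smaller and centred on AUUUA number 7. In TTP at 0 h, AUUUA number 7 took 21 cDNAs, number 8 took 14, number 6 took 9, numbers 3 to 5 took 1, 3 and 4, and numbers 1 and 2 took 0. The cDNAs assigned to number 8 lay downstream of it, from nt 642, and its pentamer held 0 TTP cDNAs at every time. At 4 h, number 7 took 33 of 35 TTP cDNAs and 26 of 31 TTP-AA cDNAs of the stretch, and number 6 took the remainder. AUUUA number 7 thus took most cDNAs of the stretch in all 5 lists with Tnf sites, although numbers 7 and 8 drew on the most nt. Within the pentamers alone, number 7 also led in each list, with 132 cDNAs against 108 at number 4 in TTP-AA at 1 h. In TTP-AA at 4 h, 46 of 77 cDNAs lay outside the stretch.

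Counts at single nt are out of 727 TTP and 1673 TTP-AA Tnf 3′UTR cDNAs at 1 h. The nt named were among the strongest of a list, so differences at them follow in part from that choice. The strongest TTP site, nt 485 (chr17:35199660), the last U of AUUUA number 7, held 52 cDNAs in TTP and 29 in TTP-AA at 1 h, 2 in TTP at 0 h, and 12 and 7 at 4 h. At nt 482, the first A of the same motif, 40 and 47 cDNAs were counted, and at nt 473 there were 39 and 38. Further upstream, nt 454, the last U of AUUUA number 4, held 7 and 41 cDNAs, and downstream nt 653 held 2 and 36. Of the 131 TTP positions at 1 h, 117 (89.3%) were also TTP-AA positions, whereas they made up 49.2% of the 238 TTP-AA positions. All 32 TTP positions at 0 h were also TTP-AA positions at 1 h, and 28 (87.5%) were TTP positions at 1 h. Over the 255 nt of the stretch, the cDNA profiles of the proteins at 1 h had a Pearson r of 0.663 and a Spearman rho of 0.556, given as a description across nt that share libraries, base composition and neighbours.

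UV crosslinks preferentially form at uridines. U made up 38.0% of the AU-rich stretch and carried 63.5% of its cDNAs in TTP at 0 h, 61.3% in TTP and 59.3% in TTP-AA at 1 h, and 77.1% and 77.4% at 4 h. Within AUUUA, the last U carried most, with a mean of 10.5 cDNAs per nt in TTP and 23 in TTP-AA at 1 h, against 1.94 and 4.42 per nt of the stretch outside AUUUA. The shares at U of both proteins at 1 h had overlapping intervals (57.6 to 64.7 and 56.8 to 61.7), unlike the shares of AUUUA numbers 7 and 8.

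Sites in the 3′UTR but outside the AU-rich stretch came mostly from the mutant. The stretch held 99.04% of the TTP and 94.0% of the TTP-AA cDNAs at 1 h (Fisher exact test, odds ratio 0.151, adjusted p 1.16e-09). At 4 h, it held 35 of 35 TTP cDNAs and 31 of 77 TTP-AA cDNAs (40.3%, 30.02 to 51.4, adjusted p 1.03e-10). Both differences passed with each site counted once, and with 10 or 50 nt in place of 20 nt around the motifs.

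Upstream of the stretch, TTP-AA at 1 h had 63 cDNAs at 21 sites from nt 91 to 122, led by nt 104 (chr17:35200041) with 12. Of these, 42 lay within the early stem-loop (nt 100 to 112). No other list had a Tnf 3′UTR site before nt 401, with 727 TTP cDNAs counted at 1 h. No AUUUA lay within this cluster.

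Downstream of the stretch, TTP-AA at 4 h had 46 cDNAs at 21 sites from nt 693 to 752. The strongest, nt 707 (chr17:35199438), held 12 cDNAs, nt 752 held 7 and nt 733 held 3. The late stem-loop (nt 701 to 715) contained 16, and the polyadenylation signal AAUAAA (nt 750 to 755) contained 11, each counted once within its own bounds. A further match of the stem-loop search, at nt 707 to 719, overlaps the late stem-loop and contained 18, so the cluster is not tied to 1 structure. At 1 h, the last 100 nt of the 3′UTR held 21 TTP-AA and 2 TTP cDNAs, but only 1 of the TTP-AA cDNAs, at nt 711, fell within the span of the late cluster. Of the 38 TTP-AA positions at 4 h, 17 (44.7%) were TTP-AA positions at 1 h, all of them at nt 465 to 496 in the AU-rich core. Transcript Tnf-202 ends at nt 638, so both transcripts contain all 8 AUUUA, and the late cluster belongs to Tnf-201 alone. The CDE stem-loop (nt 546 to 560), 60 nt after AUUUA number 7, had 20 cDNAs of TTP and 33 of TTP-AA within its bounds at 1 h.

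Outside the 3′UTR, few sites were listed. In TTP at 1 h, 23 of 750 Tnf cDNAs (3.07%, 2.05 to 4.56) lay in the CDS (20) or 5′UTR (3), compared with 9 of 1682 in TTP-AA (0.535%, 0.282 to 1.01), all in the CDS (Fisher exact test, odds ratio 0.170, adjusted p 3.66e-06). All 23 TTP sites held a single cDNA, so that with sites of at least 2 cDNAs the TTP count was 0. At 4 h, 0 of 35 TTP cDNAs and 5 of 82 TTP-AA cDNAs (6.10%, 2.63 to 13.5) lay outside the 3′UTR (adjusted p 0.320). At 0 h, TTP had none among 53.

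The coding sites formed short clusters that were mostly different between the lists. In TTP at 1 h, exon 1 held 3 cDNAs in the 5′UTR (chr17:35201873-35201881), exon 3 held 4 (chr17:35200888-35200902), and exon 4 held 10 (chr17:35200241-35200266) and 6 (chr17:35200154-35200176), the latter close to the stop codon. In TTP-AA at 1 h, exon 2 held 2 and exon 4 held 7 (chr17:35200246-35200250), inside the span of the larger TTP cluster. In TTP-AA at 4 h, 5 cDNAs lay at the start of exon 4 (chr17:35200551-35200562). Position 35200247 was the only coding nt found in more than 1 list, with 1 TTP and 2 TTP-AA cDNAs at 1 h.

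**Figure D5:**
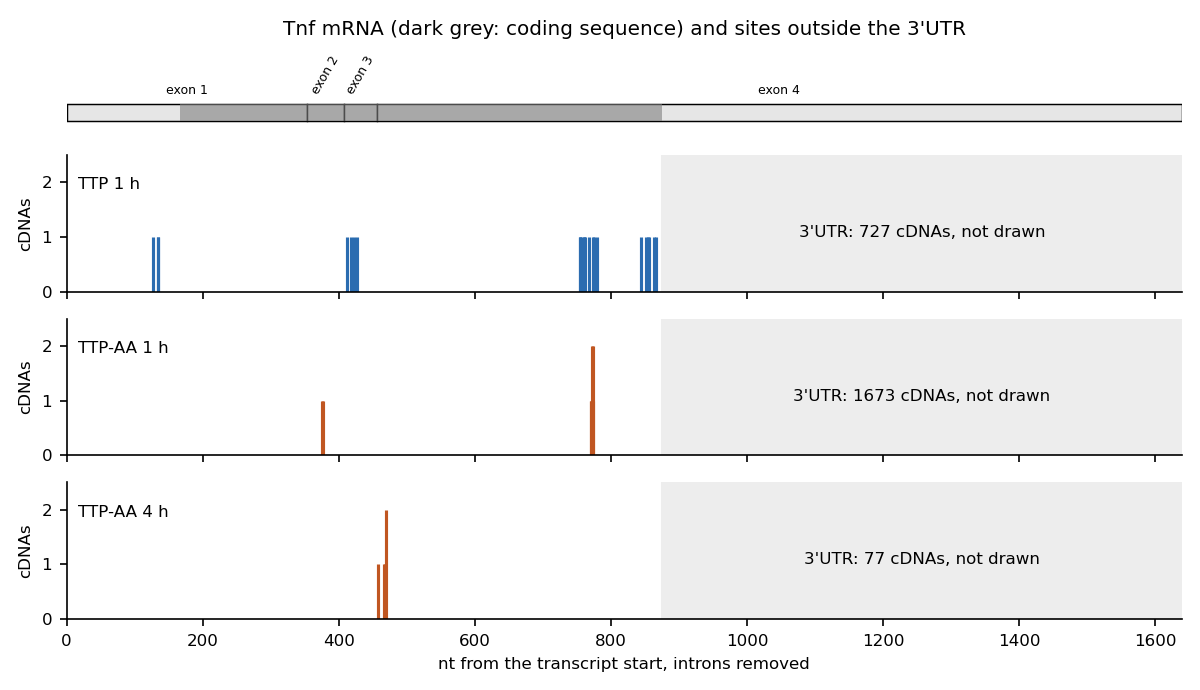
Exons of the spliced Tnf mRNA with the coding sequence in dark grey (top) and cDNAs (y axis) at sites outside the 3′UTR against the nt from the transcript start (x axis) in the 3 lists that have any. TTP at 1 h has 23 sites of 1 cDNA in 4 clusters, TTP-AA at 1 h has 9 cDNAs in 2 clusters, and TTP-AA at 4 h has 5 in 1 cluster.

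The genes around and downstream of Tnf were examined from lists of names. Of the 6 neighbours in the locus, 5 were matched by symbol (Lta and Ltb, which encode lymphotoxins, Nfkbil1, Lst1 and Aif1), and each had 0 cDNAs in every list. Of 30 genes of TNF production and signalling, 18 had a 3′UTR cDNA in any list and 12 could be tested at 1 h, where none passed in either direction against 6.39% of all genes (Fisher exact test, 0 at an unadjusted p under 0.05 among them). Their median log2 ratio of shares (TTP-AA over TTP, pseudocount 0.5) was 0.33, against 1.23 for all tested genes, and with counts below 3 set to 3 it was -0.05 against -0.71.

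Feedback inhibitors carried most 3′UTR cDNAs among them, and all counts that follow are of the 3′UTR. Tnfaip3, which encodes the ubiquitin-editing enzyme A20, held 55 cDNAs in TTP and 664 in TTP-AA at 1 h (odds ratio 1.24, adjusted p 0.458), and Nfkbia, which encodes IκBα, held 59 and 662 (odds ratio 1.15, adjusted p 0.668). Cflar, an inhibitor of caspase-8, held 14 and 209. The mRNA of the receptor TNFR2, Tnfrsf1b, held 6 and 73 at 1 h but 30 and 15 at 4 h, where its share was higher in TTP (odds ratio 0.445, adjusted p 0.0158). In that comparison, 68.0% of 25 tested genes passed. Tnfrsf1a, which encodes the receptor TNFR1, had 1 cDNA over all lists together, and Adam17, the protease that releases TNF from the cell surface, had no 3′UTR cDNA in TTP and 26 in TTP-AA at 1 h. At 0 h, Nfkbia was the only one tested and was higher in TTP (15 against 5, adjusted p 0.0219), when 30.7% of 241 tested genes passed.

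Among 15 cytokine and chemokine mRNAs known for AREs, 9 had 3′UTR cDNAs and 8 were tested at 1 h, when 6.39% of all 2065 tested genes passed. The share of Ccl3 (MIP-1α) was higher in TTP, as was that of Tnf (244 against 938 cDNAs, odds ratio 0.387, adjusted p 4.29e-30), and the share of Cxcl10 was higher in TTP-AA (13 against 549, odds ratio 4.34, adjusted p 6.22e-09). Cxcl2, Ccl2, Ccl4, Il1b, Osm and Il1a did not pass. Their median log2 ratio of shares was 0.51, against 1.23 for all tested genes (0.21 against -0.71 with counts below 3 set to 3). At 0 h, Ccl3 was listed with 54 TTP and 0 TTP-AA cDNAs (adjusted p 1.03e-18), next to the 53 and 0 of Tnf. At 4 h, Ccl3 was higher in TTP (51 against 33, adjusted p 0.0206), Ccl2 was higher in TTP-AA (0 against 10, adjusted p 0.00353), and Ccl4 held 27 and 31. Of all 25 genes tested at 4 h, 68.0% passed, and of the 241 at 0 h, 30.7% did.

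Genes whose 3′UTR cDNAs followed Tnf closely over the 6 lists included Eif5a (Pearson r 0.980), Ccl3 (0.977), Timm17a (0.956) and Pmp22 (0.941), among 459 genes with at least 50 cDNAs. These 4 had 0 cDNAs in TTP-AA at 0 h, as Tnf did, but the likeness included that list, so this follows from how they were chosen. Eif5a, a translation factor, held 10, 40, 117, 3 and 6 cDNAs in the 5 lists with Tnf sites, in the order TTP at 0 h, TTP and TTP-AA at 1 h, and TTP and TTP-AA at 4 h. Timm17a and Pmp22 had at most 2 TTP cDNAs at 0 h and 0 cDNAs at 4 h, so their r rests on the 1 h lists and on zeros. Among the 163 genes with at least 100 cDNAs, Eif5a and Ccl3 again ranked 1 and 2, and they were the only 2 of the 5 closest genes kept. With a pseudocount of 1, 3 of the 5 were kept, and Timm17a fell to rank 16.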

How the data were processed

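The deposited lists give a score per crosslink site, which per the file headers and the values is an integer count of unique cDNAs, negative on the minus strand. According to the methods, the authors removed PCR duplicates with 4 random bases per read, mapped unique reads to mm10 (GRCm38) with Bowtie using Ensembl 75, took the nt preceding the read as the site, added up the libraries of each group, and retained sites with a false-discovery rate below 0.05 in iCount (15 nt windows, 100 permutations). Weaker sites are absent from the lists, so a listed 0 sets no upper limit on binding. The 4 random bases distinguish 256 molecules per site and library.

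Here, sites were assigned with GENCODE M21 on GRCm38 (1-based) in the order 3′UTR, CDS, 5′UTR, non-coding exon, intron. This release is later than that of the authors, so counts can differ from theirs. A two-sided Fisher exact test compared each gene with at least 10 3′UTR cDNAs over both lists with all other 3′UTR cDNAs, with Benjamini-Hochberg adjustment (threshold 0.05). Tests within Tnf were adjusted over the motifs or times compared, and the interaction used a binomial model. Intervals are Wilson 95% for shares and Woolf 95% for odds ratios. Likeness was Pearson r of log2 cDNAs scaled to the 3′UTR total of each list, with a pseudocount of 0.5. Stem-loops were searched as at least 5 Watson-Crick pairs around 3 nt. Python 3.11.15, numpy 2.4.6, scipy 1.17.1, statsmodels 0.14.6 and matplotlib 3.10.9 were used, and the gene test was checked on simulated data. The per-gene comparison was run for 7 pairs of lists.

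Groups followed the sample titles (15 samples in 6 lists). The genes named were Tnf, the 5 leading genes of each list where a result turned on them, genes from the 5 most like Tnf (1 is not reported here), and the listed genes with at least 10 cDNAs at 1 h, at most 6 a list plus those past the threshold. Tnfrsf1a and the locus neighbours were named besides. Tnf and the gene lists were chosen with earlier results of these data known. Alternatives were other denominators, sites counted once or with at least 2 cDNAs, other minimum counts, other flanks, and counting only the AU-rich stretch, the last added after the data were seen.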

Additional observations from a re-analysis of the deposited data

Results flagged for a closer look

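The difference between the proteins in the Tnf share of 3′UTR cDNAs was not the same at both LPS times. The share was lower in TTP-AA at 1 h (1.79% against 7.61%) and higher in TTP-AA at 4 h (7.70% against 3.86%), and the ratio of the odds ratios, 4 h over 1 h, was 9.38 (6.17 to 14.3, likelihood-ratio test of the interaction, p 1.12e-27). Counting error alone enters this test, since the lists are pooled. With only the AU-rich stretch of Tnf counted, the ratio was 3.79. The share was then lower in TTP-AA at both times (odds ratios 0.210 and 0.796, the latter not past the threshold). Against all cDNAs the ratio was 2.55, and the share was higher in TTP-AA at both times (odds ratios 1.31 and 3.34). The change of direction was therefore absent under either setting. In TTP-AA at 4 h, 46 of the 77 cDNAs lay at nt 693 to 752, where TTP had 0 at that time. The part of the header mark that distinguished the 1 h lists in this difference was not tested.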

How the results depend on the processing

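No paired analysis was possible because the libraries of each group were summed before deposit, and for the same reason no library could be left out in turn. At 1 h, the Tnf odds ratio of TTP-AA over TTP was 1.31 against all cDNAs, 1.05 without the ribosomal RNA-like locus of Gm26917 and Gm42418 (10.4% to 32.0% of a list), and 0.988 with all gene regions. From 1 h to 4 h in TTP-AA, these settings gave 0.416, 0.429 and 0.710, and the AU-rich stretch alone gave 1.87 (adjusted p 0.0533). The AU-rich stretch alone turned the 4 h odds ratio to 0.796. With each site counted once, TTP from 1 h to 4 h gave 1.36, only 1 of the 8 AUUUA passed in place of 7, and the differences for AUUUA numbers 3, 4 and 5 turned to -1.83, -1.52 and -1.83 percentage points. With at least 2 cDNAs per site, the cDNAs outside the 3′UTR at 1 h turned to 0.247 points more in TTP-AA. With a minimum of 5 or 20 cDNAs, the genes past the threshold numbered 156 or 32 at 0 h (main 74), and 51 or 10 at 4 h (main 17), and for TTP from 0 h to 1 h a minimum of 20 gave 53 (main 131). Of the 77 alternatives of the main results, 61 kept direction and side of the threshold or, for counts of genes or motifs, stayed within 1.5 times. A further 8 turned and 2 no longer passed, while 6 counts moved by over 1.5 times. Except where stated, the cause was not tested. The 4 h lists held 906 and 1000 3′UTR cDNAs.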

Other observations

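Among the other genes of TNF production and signalling, cDNAs outside the 3′UTR were few. Birc3, which encodes an inhibitor of apoptosis, held 13 TTP cDNAs over the whole gene at 1 h, of which 3 lay in the 3′UTR, and 41 TTP-AA cDNAs, of which 39 did. Tnip1, which encodes a partner of A20, held 4 and 14 cDNAs over the whole gene, of which 0 and 6 lay in the 3′UTR. Tnfaip3 and Nfkbia had all their cDNAs in the 3′UTR in both lists at 1 h. These genes were chosen after their values were seen, and no difference was tested.

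No 3′UTR cDNA of Il6, Il10, Il12b, Il23a, Cxcl1 or Lif, all mRNAs known for AREs, was present in any list. Zfp36, the gene deficient in these cells, held 28 cDNAs in TTP and 162 in TTP-AA at 1 h over all its regions, 9 in TTP at 0 h and 0 in the other lists. Of these, 21 of the 28 and 131 of the 162 lay in the 3′UTR, which the inserted GFP-TTP constructs lacked, as they carried the coding part of TTP alone.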
